A study of Mus musculus with 13 samples.

Results

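CpG island shores are the flanks of CpG islands, the stretches rich in CG dinucleotides that cover many gene starts. The sites described here lay in such a shore and in a promoter, outside the island itself. They were chosen by the flags in the authors' deposited table (shore and promoter set, island not set), on the autosomes only, and not by any measured value. In all, 1952 of the 23904 listed sites met this rule, at 1472 genes, and 95 of the 1952 had no gene. The promoter flag reached about a kilobase to either side of the transcription start, and the farthest upstream site lay at -999 bp.

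The table compares liver DNA of 13 mice. The DNA was treated with bisulfite, which makes unmethylated cytosine read as thymine, enriched for chosen regions and sequenced. The mice were fed a diet low in fat and sucrose (7 mice, here low fat/low sucrose) or a diet high in both (6 mice, here high fat/high sucrose). No strain, sex, age or feeding time is stated in the labels. Each site has 1 average methylation level per diet, a difference in percentage points (positive where the high fat/high sucrose diet had more), a p-value and a q-value, all from the authors. The list is limited to sites with q of at most 0.010 and a difference of at least 5.0 points, so every site below passed the authors' test. Values per mouse and read depth were not analysed here, so no SD can be given and the depth behind each level is unknown.

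Methyl groups on cytosine are placed on CG dinucleotides and copied when the DNA is replicated. Islands at active gene starts are usually free of methylation, while most CG dinucleotides elsewhere in the genome carry it. A shore is the passage between these states, and its methylation is known to vary between tissues more than that of the island does. Liver is mostly hepatocytes by mass, with endothelial, stellate, immune and bile duct cells between them. In such bulk tissue a change in the mix of cells and a change within cells cannot be told apart.

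The site itself can be shown in its sequence for members close to the start. RefSeq promoter sequences (build GRCm38.p6) were matched by symbol for 1153 of the 1472 genes. Of 138 member sites whose listed distance fell within the sequence, 78 (56.5%) lay exactly on a CG dinucleotide. With the distance shifted by 1 to 10 bp either way, the share was 3.62 to 12.4%, so a few of the 78 may match by chance. Upstream of the start, 75 sites at 69 genes were placed on a single CG, 46 of them higher and 29 lower in high fat/high sucrose. The sequences below are those with the largest rises and falls among the placed sites by the authors' difference column. They are read 5′ to 3′ along the gene, with the measured CG in capitals and none of the transcript included.

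The 4 largest rises among the placed sites were at Cd164l2, Mst1, Plbd1 and Tomm20l. Mst1 encodes macrophage-stimulating protein, which the liver secretes. The windows are chr4:133220559-133220679 on the plus strand for Cd164l2, chr9:108080186-108080286 (plus) for Mst1, chr6:136661894-136662007 (minus) for Plbd1 and chr12:71111242-71111363 (plus) for Tomm20l, in GRCm38.p6.
Cd164l2: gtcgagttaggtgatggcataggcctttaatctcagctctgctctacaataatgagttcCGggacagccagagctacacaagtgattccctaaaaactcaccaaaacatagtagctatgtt
Mst1: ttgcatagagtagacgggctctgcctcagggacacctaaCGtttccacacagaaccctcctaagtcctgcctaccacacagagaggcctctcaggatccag
Plbd1: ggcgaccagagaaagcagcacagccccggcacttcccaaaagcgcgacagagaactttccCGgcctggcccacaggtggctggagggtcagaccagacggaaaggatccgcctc
Tomm20l: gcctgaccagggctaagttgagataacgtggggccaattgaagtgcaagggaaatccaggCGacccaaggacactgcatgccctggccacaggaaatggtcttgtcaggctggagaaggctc

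Per the authors' deposited table, the Cd164l2 site averaged 55.8% with low fat/low sucrose against 74.7% with high fat/high sucrose, a difference of 20.9 points (q = 0.00873). The Mst1 site went from 17.2 to 33.8% (17.99 points, q = 0.000274) and the Plbd1 site from 2.14 to 24.5% (16.8 points, q = 0.000460) in the authors' deposited table. The listed difference need not equal that between the averages, and at Plbd1 it is clearly smaller. Ranked by the averages, the placed sites would stand in another order. At Tomm20l the authors' deposited table gives 17.1 and 29.1% (16.0 points, q = 0.00316). The Plbd1 window holds 7 CG dinucleotides over 114 bases, and those of Cd164l2, Mst1 and Tomm20l hold 2 each. A measured site can thus be 1 of few CG dinucleotides or 1 of many.

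The largest falls among the placed sites were at 0610038B21Rik, Fut11, Slc38a4 and Zpbp. Fut11 encodes a fucosyltransferase, Slc38a4 an amino acid transporter whose gene is imprinted, and Zpbp a sperm protein that binds the egg coat. The windows are chr8:77516977-77517055 (plus), chr14:20694807-20694928 (plus), chr15:97055957-97056052 (minus) and chr11:11462420-11462541 (minus), in the same order and build.
0610038B21Rik: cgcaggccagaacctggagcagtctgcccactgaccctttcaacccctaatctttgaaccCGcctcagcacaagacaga
Fut11: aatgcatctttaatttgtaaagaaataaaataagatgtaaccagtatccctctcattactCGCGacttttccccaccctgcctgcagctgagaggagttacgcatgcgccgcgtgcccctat
Slc38a4: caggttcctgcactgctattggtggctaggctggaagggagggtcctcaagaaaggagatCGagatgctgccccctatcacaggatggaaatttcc
Zpbp: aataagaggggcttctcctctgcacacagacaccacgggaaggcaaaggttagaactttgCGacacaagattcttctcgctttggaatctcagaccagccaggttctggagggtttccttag

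Fut11 shows 2 adjacent measured CG dinucleotides, at -101 and -99 bp. Both fell, from 71.1 to 56.5% (-18.1 points, q = 0.00124) and from 61.6 to 50.5% (-15.8 points, q = 0.00844) in the authors' deposited table. The 0610038B21Rik site fell from 50.5 to 31.8% (-19.1 points, q = 0.00201) in the authors' deposited table. The Slc38a4 site, 36 bases before the start and the only CG in its window, averaged 50.1 and 35.6% (-14.7 points, q = 0.00214) in the authors' deposited table. For Zpbp the authors' deposited table gives 54.0 and 41.7% (-14.5 points, q = 0.00672).

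Placed sites of a promoter can also differ in direction. Of 6 genes with 2 or more placed sites, En1 alone had them in opposite directions. En1 encodes a homeobox transcription factor of the developing midbrain and limb. Its window, chr1:120602237-120602357 (plus, GRCm38.p6), holds 13 CG dinucleotides, of which the 2 in capitals were listed.
En1: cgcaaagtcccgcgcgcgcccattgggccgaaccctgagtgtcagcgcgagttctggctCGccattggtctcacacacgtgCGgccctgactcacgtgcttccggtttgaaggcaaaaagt
The first, at -191 bp, fell from 14.0 to 3.81% (-10.1 points, q = 0.00170) and the other, at -169 bp, rose from 4.13 to 13.3% (7.49 points, q = 0.00833) in the authors' deposited table.

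Methylation at these promoter shores was more often higher than lower in high fat/high sucrose. Of the 1952 sites, 1326 (67.9%) were higher and 626 (32.1%) were lower, where 57.7% of all 23654 listed autosomal sites were higher and 42.3% lower. Rises had a median of 10.4 points (quartiles 7.64 and 13.8) and falls a median of -10.8 points (quartiles -14.1 and -7.72). Over all listed autosomal sites the median rise was 11.7 points and the median fall -11.6 points. Joined within 1000 bp, the member sites made 1615 clusters, of which 1078 (66.7%) were higher by their site of smallest p, where 55.6% of clusters of all listed autosomal sites were. The sites come from the same 13 mice, so these shares describe the list and were given no test. A q under 0.001 was held by 455 sites (23.3%), where 23.6% of all listed autosomal sites had one.

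Levels were low at many of these sites, and 737 of the 1952 stood under 20% in both diets. The median level was 19.8% in low fat/low sucrose (quartiles 7.05 and 48.0) and 26.4% in high fat/high sucrose (quartiles 11.05 and 53.0). Sites that were higher started from a median of 14.5% and stood at 26.0% in high fat/high sucrose. Sites that were lower went from a median of 40.9 to 28.1%. The mean of both averages was under 20% at 916 sites, and of these 665 (72.6%) were higher. It was 20 to 50% at 537 sites, with 418 (77.8%) higher, and 50% or more at 499, with 243 (48.7%) higher.

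**Figure D1:**
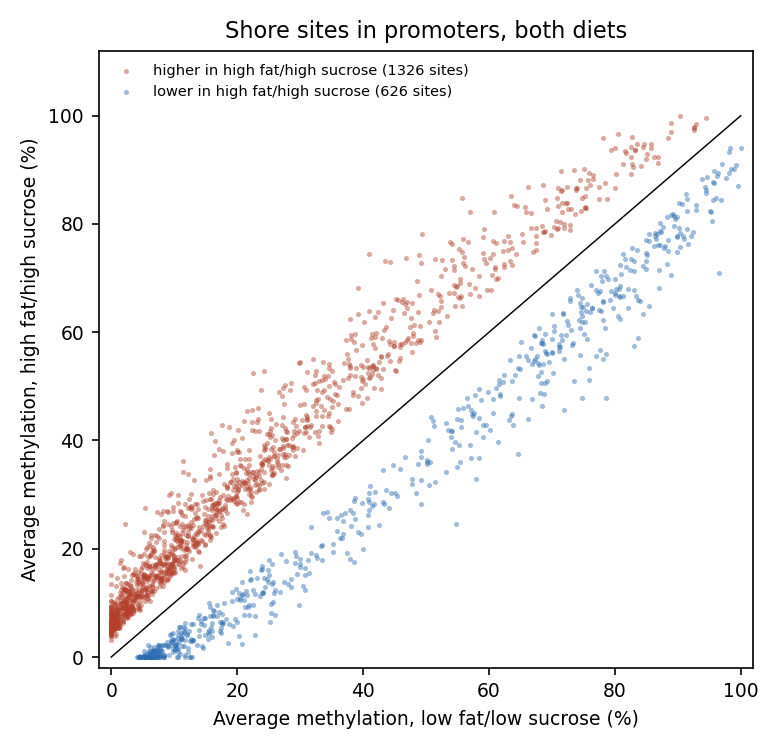
Average methylation of the 1952 promoter shore sites in low fat/low sucrose (x axis, %) and high fat/high sucrose (y axis, %), 1 point per site. The 1326 sites above the diagonal were higher with high fat/high sucrose and crowd at low levels, and the 626 below it were lower. The gap along the diagonal follows from the authors' limit of 5.0 points. That limit is on their difference column, so the averages plotted can lie closer than 5.0 points at some sites.

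Some sites were listed at 0 in a diet. The average was listed at 0 in low fat/low sucrose at 76 sites, with differences of 5.02 to 12.1 points, and at 0 in high fat/high sucrose at 47 sites, with differences of -12.6 to -5.03 points. From under 5% in low fat/low sucrose, 117 sites reached 10% or more in high fat/high sucrose. In the other direction, 60 sites went from 10% or more to under 5%. Without read counts, a listed 0 gives no upper limit on the methylation that was there.

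Direction followed level here as it did in the whole list. The share higher was 69.1% at mean levels under 10%, peaked at 82.2% between 20 and 30% and was 30.3% at 90% or more, a bin of 33 sites. Over all listed autosomal sites the corresponding shares were 68.2, 87.4 and 41.6%. Promoter shore sites of 60% or more were higher at 172 of 382 sites (45.03%), where 34.1% of all listed autosomal sites of that level were. A share above that of all sites was not particular to promoter shores. At this level 67.3% of 52 island sites in promoters and 39.1% of 1010 shore sites outside promoters were higher. For promoter sites away from islands and shores it was 30.4% of 471. Given the share of the other listed autosomal sites at each 10-point level, 66.7% of the member sites would be higher, and 67.9% were. The differences between these shares were not tested.

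**Figure D2:**
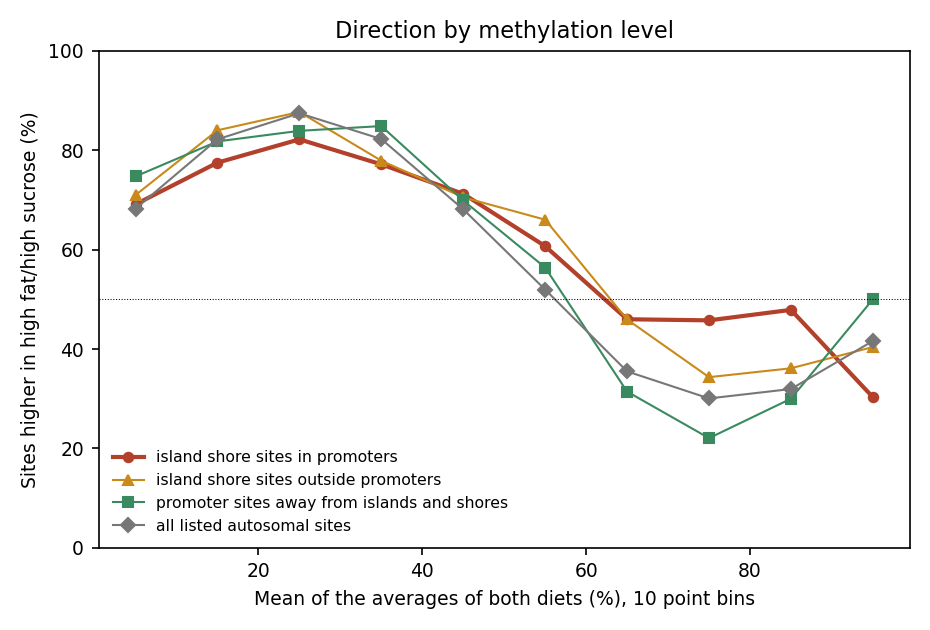
Percent of sites higher in high fat/high sucrose (y axis) by the mean of both diets' averages in 10-point bins (x axis, %), for promoter shore sites, shore sites outside promoters, promoter sites away from islands and shores, and all listed autosomal sites (island sites in promoters are not plotted). These 4 lines are highest between 20 and 40% and lowest above 60%. Between 70 and 80% the promoter shore line stands at 45.8% and that of all listed autosomal sites at 30.1%. There the line of shore sites outside promoters stands at 34.3% and that of promoter sites away from islands and shores at 22.1%. Of the island sites in promoters, 81.8% of 11 were higher in this bin.

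Beside the sets that share a flag with them, the promoter shore sites lay between islands and CG-poor promoters in level. Promoter sites inside islands (857) had a median of 5.12% in low fat/low sucrose, and 66.7% of them were higher. Promoter sites away from islands and shores (1308) had a median of 35.1%, with 60.3% higher. Shore sites outside promoters (2899) had a median of 37.1%, with 64.4% higher. The median rise was 7.998 points at island sites in promoters, 11.5 at promoter sites away from islands and 11.4 at shore sites outside promoters, and 10.4 at the promoter shores. These differences were not tested.

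The rule took promoter sites outside islands, so it partly set how far they lay from the start. The median distance was 589 bp, and 1199 of the 1952 (61.4%) lay more than 500 bp from the start, while 294 lay within 250 bp. Upstream lay 1041 sites, 720 (69.2%) of them higher, and downstream 911, 606 (66.5%) of them higher. Methylation was lowest just upstream of the start: between -250 and 0 bp the medians were 11.1% (low fat/low sucrose) against 14.5% (high fat/high sucrose). Between -1000 and -750 bp they were 30.9 and 41.5%, and more than 750 bp downstream 21.2 and 28.1%. The share higher was 76.4% of 331 sites between -750 and -500 bp and 60.9% of 184 sites between -250 and 0 bp.

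**Figure D3:**
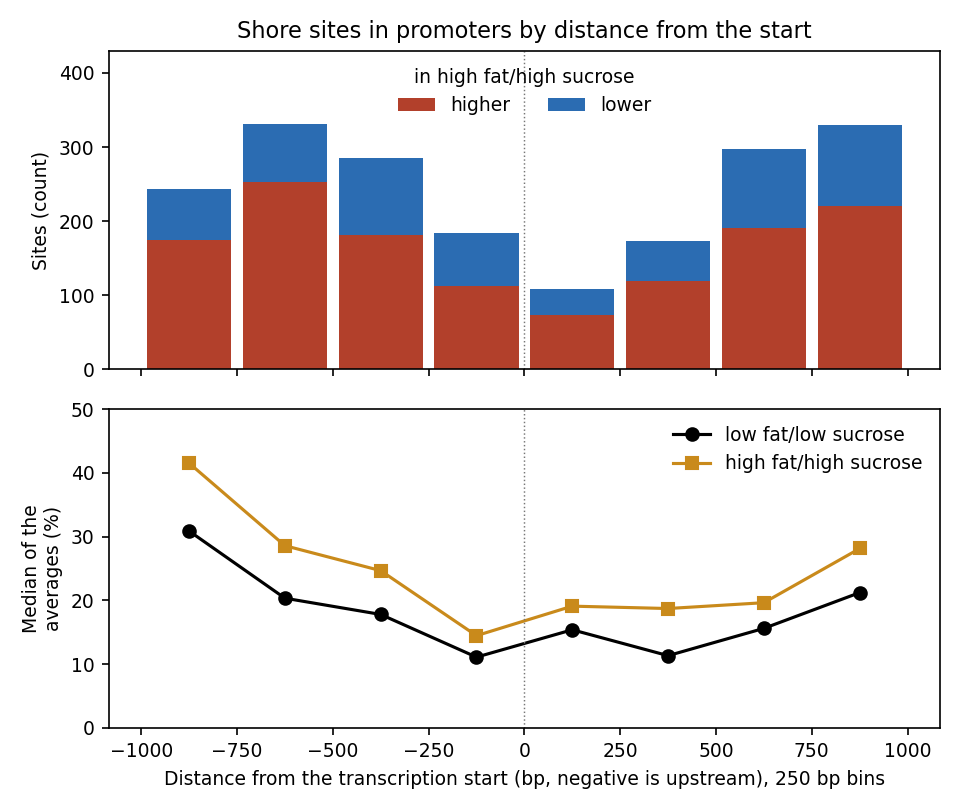
Promoter shore sites by distance from the transcription start in 250 bp bins (x axis, bp, negative is upstream). Top, number of sites, higher (red) and lower (blue) in high fat/high sucrose. Bottom, median of the averages in each diet (%), which is higher in high fat/high sucrose in all 8 bins. It is lowest just upstream of the start in both diets, though in low fat/low sucrose the bin 250 to 500 bp downstream is nearly as low.

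At the edge of the promoter flag, 394 of 570 member sites more than 750 bp from the start (69.1%) were higher, with a median level of 30.2%. Just outside it, 628 of 1005 shore sites outside the flag and up to 1500 bp from the start (62.5%) were higher, with a median level of 41.4%. By gene feature, 834 member sites carried only the intron flag (66.9% higher), 233 only the exon flag (63.1%), 86 both (68.6%) and 799 neither (70.3%). Of the upstream sites, 249 carried an exon or intron flag, so they also lie in another transcript.

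The largest rise was at Slc47a2, which encodes a multidrug and toxin extrusion transporter. In the authors' deposited table its intronic site, 808 bp downstream of the start on chromosome 11 at 61155555 (mm9, as all positions from here on), stood at 40.9% on low fat/low sucrose against 74.4% on high fat/high sucrose, a difference of 33.4 points (q = 0.000572). Carmil1, a regulator of actin capping listed as Lrrc16a, followed with 55.7 and 84.9% (30.4 points, q = 9.68e-05) at 24371972 on chromosome 13 in the authors' deposited table. Next in the authors' deposited table came Nfkbid, a nuclear member of the IκB family, from 24.2 to 52.9% in an exon on chromosome 7 at 31208487 (28.0 points, q = 9.92e-06). All 3 lay downstream of their start.

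The other 7 of the 10 largest rises lay between 25.3 and 27.5 points in the authors' deposited table. They were at Scyl3, the carbonic anhydrase gene Car7, the zinc finger gene Zfp536, the microRNA gene Mir1982, the protocadherin gene Pcdhgb6, the diacylglycerol kinase gene Dgki and the homeobox gene Barx1. Reads from Pcdhgb6 may come from other members of its cluster, whose sequences are alike. All 10 started between 15.9 and 55.7% in low fat/low sucrose. In all, 82 sites (4.201%) rose by 20 points or more, where 3.95% of all listed autosomal sites did.

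The largest fall was at B3galt4, which encodes a galactosyltransferase of ganglioside synthesis. Per the authors' deposited table its exonic site on chromosome 17 at 34087915 had 78.6% on low fat/low sucrose against 47.9% on high fat/high sucrose (-31.2 points, q = 0.000896). A second B3galt4 site, at 34087887 in the same exon, fell by 28.1 points in the authors' deposited table, from 74.8 to 47.8%. The RNA helicase gene Ddx24 had 54.8 and 24.7% at an intronic site on chromosome 12 at 104663212 (-28.9 points, q = 8.30e-05) in the authors' deposited table. Ly6k, a gene of the Ly6 family, had 64.6 and 37.5% only 22 bp upstream of its start on chromosome 15 at 74630419 (-27.9 points, q = 4.62e-05) in the authors' deposited table.

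The remaining 6 of the 10 largest falls lay between -25.9 and -24.2 points in the authors' deposited table. They were at Arhgef2 and Dock1, which encode exchange factors for small GTPases, at Tmem268 (listed as 6330416G13Rik), at Znhit1, a chromatin remodelling subunit gene, at Mdp1 and at Tmem88. In the authors' deposited table the 10 sites stood between 54.8 and 83.6% in low fat/low sucrose. These falls began at higher levels than most of these rises. Picking sites by the size of the difference favours this, since a large fall needs a high start and a large rise a lower one. In all, 30 sites (1.54%) fell by 20 points or more, where 2.67% of all listed autosomal sites did.

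**Figure D4:**
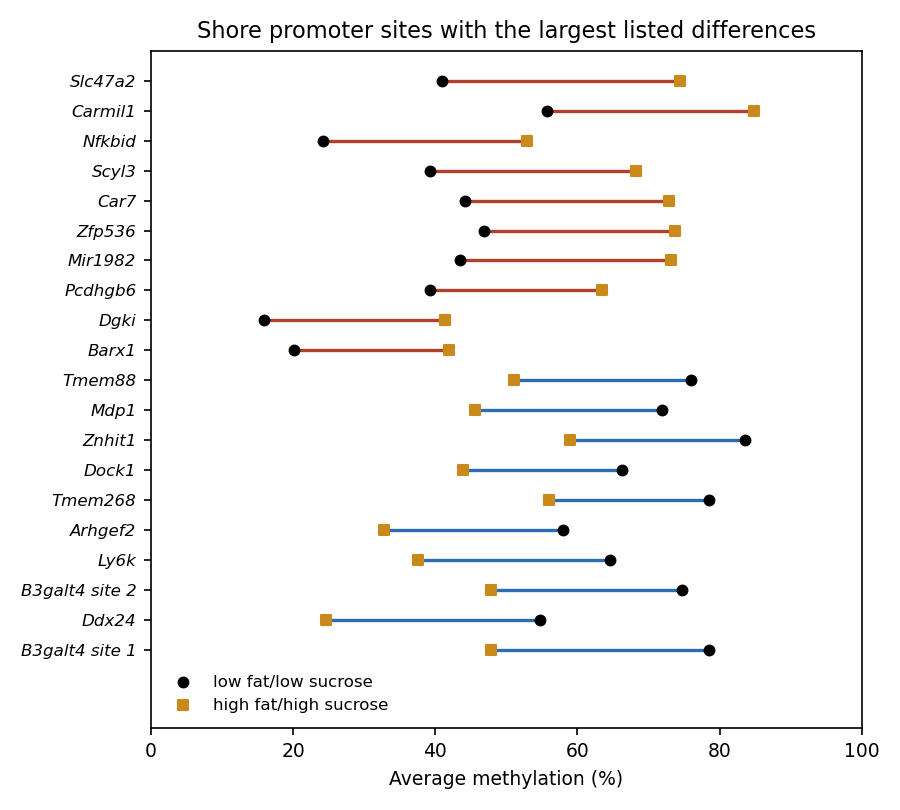
Average methylation (x axis, %) of the 10 largest rises and the 10 largest falls, 1 line per site from low fat/low sucrose (black circle) to high fat/high sucrose (square). Rises (red lines) begin between 15.9 and 55.7% and falls (blue lines) between 54.8 and 83.6%. B3galt4 has 2 sites.

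The smallest q was at Foxa3, which encodes a forkhead transcription factor of hepatocytes. Its intronic site on chromosome 7 at 19608383 had 2.99% on low fat/low sucrose against 11.4% on high fat/high sucrose (8.66 points, q = 1.67e-10) in the authors' deposited table. Small q did not need a large difference. At Pnpt1, a mitochondrial ribonuclease gene, the authors' deposited table gives 5.36 and 0.552% (-5.04 points, q = 5.12e-08). Ywhah, a 14-3-3 gene, had 80.03 and 67.3% (-15.1 points, q = 8.32e-09) in the authors' deposited table. The other genes among the 10 smallest q were Pttg1ip, Usp3 and Slc7a2, which rose, and Secisbp2, Slc45a3 and Dennd4b, which fell. A site with no gene, on chromosome 7 at 91301273, rose from 9.59 to 23.5% (q = 2.41e-07) in the authors' deposited table.

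Where a gene had several promoter shore sites, they mostly went together. Most member sites were higher, so some would share a direction from that alone, and this was not tested. Single sites made up 1200 of the 1472 genes. Of the 272 genes with 2 or more, 158 had all sites higher, 52 all lower and 62 had both. For the 69 genes with 3 or more, these counts were 46, 14 and 9. Neighbouring member sites at most 100 bp apart had the same direction in 207 of 215 pairs (96.3%). More than 200 and up to 500 bp apart 38 of 47 pairs did, and more than 500 and up to 1000 bp apart 19 of 33. Sites this close can share sequencing reads, so they are not independent.

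Rexo2, which encodes an oligoribonuclease, had the most sites. All 8 were higher, within 158 bp at -841 to -683 bp on chromosome 9, and their averages had a mean that rose from 17.6% (low fat/low sucrose) to 29.3% (high fat/high sucrose). Their differences in the authors' deposited table ran from 7.45 to 14.8 points. The 7 sites of the dynein light chain gene Dynlt1a, which straddle the start from -17 to 422 bp, were all higher (means 29.2 and 44.2%). Reads of Dynlt1a may come from near-identical copies, so these sites are uncertain. The mitochondrial RNA helicase gene Supv3l1 had 6 of 6 higher within 43 bp (means 64.4 and 76.8%). Coq8a (listed as Adck3), of coenzyme Q synthesis, had 6 of 6 higher (means 22.1 and 30.4%). These blocks thus began at quite different levels.

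Among genes with 5 sites, Dgki, Fam184a, Vps45 and Sfrp4 had all of them higher. Vps45, a gene of vesicle fusion, is the extreme by level: from -11 to 30 bp around the start, 4 of its 5 sites were listed at 0 in low fat/low sucrose, and the mean in high fat/high sucrose was 6.44%. Ehbp1l1 (means 70.3 and 58.7%) and Tmc6 (means 61.0 and 50.2%) had 5 of 5 lower. Selenoi (listed as Ept1), which encodes an ethanolamine phosphotransferase, had 4 higher and 1 lower. With 4 sites each, the homeobox gene Hoxb5 had all higher (means 33.8 and 51%), while Septin9, whose symbol stands as a date in the deposited table, had all lower across separate transcript starts (means 25.3 and 13.0%). Mkrn3, an imprinted gene, and Ucp2, a mitochondrial carrier gene, also had 4 of 4 lower.

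Some starts had member sites on either side. At 35 starts with member sites both upstream and downstream, the sites of smallest p had the same direction at 25 (71.4%), both higher at 16 and both lower at 9. At the other 10 they were opposite. One of these, Kmt2b (listed as Wbp7), a histone methyltransferase gene, had a site at -238 bp going from 84.4 to 94.3% and one at 296 bp going from 95.6 to 84.5% in the authors' deposited table. Another, Nedd4l, a ubiquitin ligase gene, had 0.975 and 7.77% upstream and 44.5 and 30.4% downstream in the authors' deposited table. Whether agreement at the 25 starts went beyond what the share of rises gives was not tested.

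Member sites were also set beside other listed sites nearby or in the same gene. Of 135 member clusters with a listed island site within 2000 bp, 81 (60%) had the direction of the nearest one, 63 both higher and 18 both lower. The shore sites of these pairs had a median of 19.9% in low fat/low sucrose and the island sites 4.94%. Of 187 member clusters with a listed shore site outside the promoter within 2000 bp, 120 (64.2%) agreed in direction, 90 both higher and 30 both lower. Most sites in both kinds of pair were higher, so some pairs would agree from those shares alone. Whether agreement went beyond that was not tested. For 638 genes with another listed site more than 2000 bp from the start, 316 (49.5%) had the same direction at both. Where the promoter shore was higher, 51.8% of the other sites were higher, and where it was lower, 55.0% were.

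The lists that follow cover pathways of liver metabolism, regulators and markers of cell types. They held 129 member sites at 92 genes, and 15 of the 20 lists had any. Over all member sites 67.9% were higher and the median difference was 7.75 points. Most lists hold few sites, and none was given a test.

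**Figure D5:**
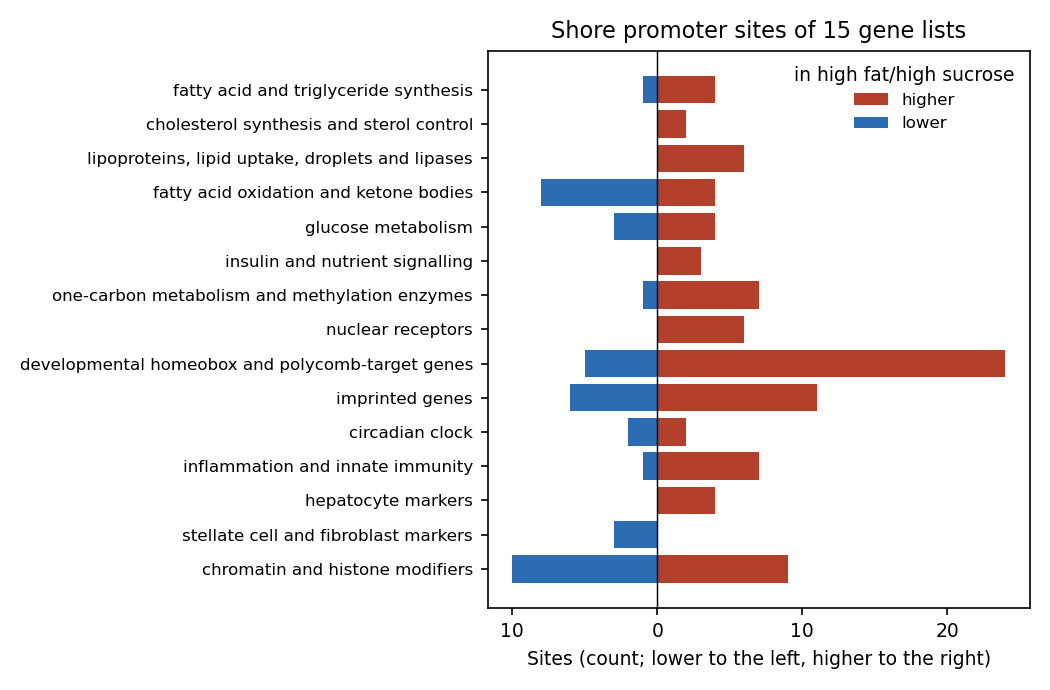
Number of promoter shore sites per gene list that were higher (red, to the right) or lower (blue, to the left) in high fat/high sucrose, for the 15 lists with a member site. Developmental genes hold the most, 24 higher and 5 lower. Fatty acid oxidation, stellate cell and chromatin genes have more sites lower than higher.

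Of fatty acid and triglyceride synthesis 4 of 5 sites were higher (median 10.4 points): Dgat1, which makes the final bond of triglyceride, Gpam, Elovl7 and Mlxipl, the gene of the carbohydrate response factor ChREBP. The site of Fads2, a desaturase gene, was lower. Dgat1 went from 4.74 to 15.5% (10.4 points, q = 0.000637) and Mlxipl from 21.0 to 34.9% (18.3 points, q = 0.00740) in the authors' deposited table, while Fads2 went from 17.8 to 6.21% (-10.6 points, q = 0.00510). For lipoproteins, uptake and lipases 6 of 6 were higher (median 14.1 points), at Pltp, Slc27a2, Scarb1 and Apoa5. Pltp, the phospholipid transfer protein gene, had 2 sites, the larger from 53.9 to 76.7% (21.0 points, q = 0.000538) in the authors' deposited table. Scarb1, the receptor for high-density lipoprotein, went from 44.2 to 58.4% and Apoa5 from 5.78 to 18.6% in the authors' deposited table. The site of Nr1h2, an oxysterol receptor gene of the cholesterol list, was also higher. Over all listed autosomal sites at the genes of these lists, shores or not, 86.2% of 123 were higher for synthesis. The share was 77.3% of 66 for lipoproteins, uptake and lipases and 71.2% of 59 for the cholesterol list.

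Fatty acid oxidation and ketone genes had more falls, 8 of 12 sites, with a median difference of -10.03 points. Ucp2 gave 4 of these, 3 of them close together in an exon, and Bdh1, which interconverts the ketone bodies, 3. The Ucp2 exon site of smallest q stood at 74.7 and 61.9% (-14.3 points, q = 3.86e-06) in the authors' deposited table. The Bdh1 sites at 817 and 837 bp downstream fell from 36.8 to 22.7% and from 35.2 to 19.5%, and its upstream site from 76.4 to 64.4%, in the authors' deposited table. The thiolase gene Acaa1b had 2 higher and 1 lower, and Acat1 and Etfb had 1 higher site each. Counted once per gene, 3 of the 5 genes were higher (60%), so the excess of falls rests on Ucp2 and Bdh1. Over all 68 listed autosomal sites at the list's genes 58.8% were higher.

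Glucose genes went both ways, 4 higher and 3 lower of 7 (median 6.06 points). Over all 71 listed autosomal sites at the list's genes 62.0% were higher. The glucose transporter gene Slc2a1 rose from 23.2 to 43.4% (20.4 points, q = 0.00367) at -470 bp, and Pfkfb3, a regulator of glycolysis, fell from 44.1 to 27.6% (-17.8 points, q = 0.000267) in the authors' deposited table. Pygb, Pfkp and Tkt were also higher, and Hk1 and Pgm1 lower. Of the insulin and nutrient signalling genes Grb10, an adaptor that restrains the insulin receptor, alone had member sites, and its 3 were higher. The one of smallest q went from 31.1 to 44.4% (14.7 points, q = 2.52e-06) in the authors' deposited table. Over all 73 listed autosomal sites at the insulin and nutrient signalling genes 69.9% were higher.

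The list of one-carbon metabolism and methylation enzymes had 7 of 8 sites higher (median 8.16 points). Over all 76 listed autosomal sites at the list's genes 68.4% were higher. Pemt, which methylates phosphatidylethanolamine, was listed at 0 and 6.53% (q = 0.000966) and Tdg, a glycosylase of DNA demethylation, at 20.04 and 32.8% (q = 0.00302) in the authors' deposited table. Mat2a, Mthfd1, Mthfd2 and Mbd2 were also higher. Nuclear receptor genes had 6 of 6 higher (median 13.1 points), 3 of them at the retinoic acid receptor gene Rarg and the others at Nr1h2, Nr4a2 and Nr5a2. The largest, at -651 bp of Rarg, went from 41.2 to 59.0% (18.6 points, q = 0.000254) in the authors' deposited table. Over all 98 listed autosomal sites at the nuclear receptor genes 70.4% were higher.

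Homeobox genes and other developmental targets of polycomb had 24 of 29 sites higher (82.8%, median 8.37 points) at 20 genes, from low levels (median 12.2%). All sites were higher at 15 genes, all lower at Dlx5 and Isl2, and Hoxb1, Pax9 and En1 were mixed. Over all 344 listed autosomal sites at the list's genes 76.7% were higher. By symbol, 13 of 14 member sites of Hox genes were higher, where 83.6% of all 61 listed autosomal sites of Hox genes were. The 4 Hoxb5 sites, within 35 bp of each other, had the larger differences (17.1 to 21.2 points), while Hoxa7 rose from 25.9 to 40.1% (14.5 points, q = 0.000143) and Hoxc6 from 7.14 to 14.8% (q = 0.000244), in the authors' deposited table. Sox1 was listed at 0 and 6.17% (q = 8.88e-05) in the authors' deposited table.

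Imprinted genes, read from 1 parental copy, had 11 of 17 sites higher (median 8.35 points). Over all 85 listed autosomal sites at the list's genes 62.4% were higher. Dlk1 went from 17.6 to 42.9% (21.6 points, q = 0.000869) and Usp29 from 39.8 to 57.7% in the authors' deposited table. All 4 Mkrn3 sites were lower, 3 of them within 82 bp upstream of the start, with levels of 20.04 to 27.8% against 10.8 to 17.8% (low fat/low sucrose against the other diet) in the authors' deposited table. Peg13 had neighbouring sites in both directions, from 61.4 to 39.7% (-19.8 points, q = 1.21e-05) and from 38.9 to 56.8% (19.1 points, q = 0.00931), in the authors' deposited table. The clock list was even, with Clock and Hlf higher and Per2 and Csnk1e lower, where 63.2% of all 57 listed autosomal sites at its genes were higher. Per2 went from 4.98% to a listed 0 (q = 7.87e-05) in the authors' deposited table.

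Inflammation genes had 7 of 8 sites higher (median 10.8 points), at Ikbkb (3 sites), Il1r1, Irf1, Nfkb2 and Tnfrsf1b, with Irf5 lower. Over all 97 listed autosomal sites at the list's genes only 51.5% were higher. Ikbkb, the kinase gene that frees NF-κB, had 72.4 and 83.8% downstream and 15.9 and 25.4% upstream (q = 4.50e-05 and 2.95e-05) in the authors' deposited table. Chromatin genes were nearly even, 9 of 19 higher (median -5.96 points). With differences of at least 10 points alone, 53.8% of 13 were higher. Over all 175 listed autosomal sites at the chromatin genes 52% were higher. Both sites of Cbx7, a polycomb gene, were lower, the larger fall from 59.1 to 40.6% (-18.0 points, q = 0.00227) in the authors' deposited table.

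Few cell type markers had a member site, and methylation alone does not check the labelled tissue against expressed markers. The hepatocyte list had 4 of 4 higher, all at Foxa3. The stellate cell and fibroblast list had 3 of 3 lower: Des went from 90.8 to 77.9%, Loxl2 from 56.6 to 46.4% and Pdgfra from 9.46 to 2.78% (q = 0.000974, 0.000407 and 0.00937) in the authors' deposited table. Over all 25 listed autosomal sites at this list's genes, 14 (56%) were higher. For the hepatocyte list 61 of 73 were. The endothelial, macrophage, lymphocyte and bile duct lists, and that of xenobiotic and bile acid genes, had 0 member sites. Whether the mix of liver cells differed between the diets was not tested.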

How the data were processed

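Liver DNA of 13 mice was captured and bisulfite sequenced. The capture set named in the labels is an exon set. Tools in the submitters' processing notes are Bismark, methylKit, Trim Galore and CASAVA 1.8, and the build is mm9, with no settings. Per the file headers, the authors' deposited table gives for each site the q-value and p-value, the difference in percentage points, the average percent methylation of each diet, a distance to a start and annotation flags. How averages were weighted and which test was run is not stated there. The difference column and the difference of averages had the same sign at all 1952 sites (median gap 0.799 points, largest 13.9). Member sites had the shore and promoter flags, no island flag, and were not on chr20, chr21 or chr22. Sample titles begin with G1 or G2 (4 and 3 low fat/low sucrose mice, 3 and 3 high fat/high sucrose mice); what the prefix marks is not stated, and its part in the differences was not tested. The members and lists were chosen with earlier results of these data known. Symbols were matched to RefSeq (GRCm38.p6) by current symbol, synonym or transcript, and 1 site kept its listed symbol. A site's gene is the one whose start the table gives, so it need not lie in it.

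Counts, medians and shares were computed with pandas 2.3.3; no test across mice could be run. Clusters join sites within 1000 bp; the clustering was tested on simulated data. Named are the 10 largest rises, falls and smallest q, the 10 genes of most sites and, by p, at most 3 genes from each list; others were chosen after their values were seen. A few genes the rule names are not reported here. Alternatives were other limits on q, difference, level and distance, other units (clusters, genes) and the averages' difference.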

Additional observations from a re-analysis of the deposited data

How the results depend on the processing

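The share of member sites higher in high fat/high sucrose was 64.9% within 500 bp of the start and 71.2% at q under 0.001, against 67.9%, and it stayed between these under the other alternatives run. At q under 0.001 the median rise was 12.8 points, the median fall -13.7 points and the median level in high fat/high sucrose 29.0%; by the difference of averages the median rise was 9.89 points. Among the sets set beside it, islands in promoters had 77.2% higher at 10 points or more and 72.5% at q under 0.001, promoter sites away from islands 64.7% at q under 0.001, and shore sites outside promoters 61.9% by 1000 bp clusters. The cause was not tested. In 2 of 29 list shares under alternatives the majority changed side, fatty acid oxidation once per gene (60% higher) and chromatin at 10 points or more (53.8%). Of 123 named sites, 122 moved by under 1.5 times by the difference of averages, and all kept their sign. No paired analysis was possible because only the averages of each diet were used. Unknown read depth limits every average.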

Other observations

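The rule leaves out chromosomes the table names chr20 to chr22. Of 27 shore sites in promoters there, all on chr20, 15 were higher in high fat/high sucrose. By chromosome, the share of higher promoter shore sites ran from 51.7% of 60 sites on chromosome 16 to 78.3% of 92 on chromosome 6. By symbol family, 37 of 47 promoter shore sites of solute carrier (Slc) genes were higher (78.7%), 29 of 38 of Zfp zinc finger genes (76.3%) and 10 of 19 of protocadherin genes (52.6%), beside 67.9% of all promoter shore sites. Over all listed autosomal sites of these families the shares were 58.9, 58.9 and 67.7%, and none of these differences was tested. Reads of protocadherin genes may be placed on the wrong copy.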
